A study of Rattus norvegicus with 10 samples.

Results

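Milk whey holds cell-free RNA, and the transcripts described here are those of the proteasome, read in whey of 3 lactating F344/N rat dams. Whey was sampled postpartum on d 2 (colostrum), d 9 and d 16, and these dams also gave serum on d 21. The members were all non-control probes whose gene name in the array files starts with Psm, a letter from a to g and a digit, without the interferon-inducible Psmb8, Psmb9 and Psmb10. That rule took 51 of the 41012 probes, which stood for 43 of 35469 gene names. Whey was 1 array per dam and day, 9 arrays in all, and serum was 1 array of RNA mixed from the 3 dams, so serum has no replicate. The whey groups differed in no treatment or allele: before each milking all dams were kept from their litters for some hours, given oxytocin and lightly anesthetized with sevoflurane. Serum was taken at sacrifice under deep sevoflurane anesthesia, and the paper describes no oxytocin or litter separation for it. Each array received 100 ng of total RNA, so values are not amounts per volume of milk. After quantile normalization they are levels relative to the other probes of the array and not shares of the RNA.

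The proteasome is the barrel-shaped protease that degrades proteins tagged with ubiquitin. Its core particle is built of outer rings of alpha subunits, which gate the entrance, and inner rings of beta subunits, some of which cut the peptide chain. A regulatory particle caps the barrel, with a base of ATPases that unfold the substrate and a lid that removes the ubiquitin, while other caps (activators) open the gate without ubiquitin and dedicated chaperones assemble the rings. Milk-secreting epithelium makes protein at a high rate, and ubiquitin-dependent degradation is a standard route for its misfolded products.

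By these roles the 43 genes were 8 alpha ring genes, 8 beta ring genes, 6 ATPases, 10 non-ATPase subunits of the regulatory particle, 4 activators, 6 assembly chaperones and Psmc3ip, which the name rule takes although it encodes a recombination protein named for its binding to an ATPase subunit. Psmb11, the thymus-specific beta subunit, was not well above background on any array. The other 50 probes of 42 genes were well above background on all 9 whey arrays, so all were tested and the filter on dim probes removed no other member. Of these genes 7 had more than 1 probe, and each gene is described by the probe detected on most arrays.

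Each transcript was read through a probe of 60 bases, and the probes below, written 5′ to 3′ as the array files give them, are those on which the largest fall, the rise of the activator Psme4 and the differences between probes of a gene rest. Positions are in rat build rn4 as annotated by the array design, where a span longer than the probe is possible (21 of the 51 probes), and no exon annotation of that build was used here.
Psmd13 (chr1:201048034-201048330, plus strand): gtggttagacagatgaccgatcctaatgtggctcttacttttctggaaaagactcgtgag
Psme4, first probe (chr14:111990483-111990542, plus strand): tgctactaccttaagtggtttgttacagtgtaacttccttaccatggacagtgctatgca
Psme4, second probe (chr14:111981267-111981326, plus strand): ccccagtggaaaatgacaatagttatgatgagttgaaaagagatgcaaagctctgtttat
Psma6, first probe (chr6:75667273-75667332, plus strand): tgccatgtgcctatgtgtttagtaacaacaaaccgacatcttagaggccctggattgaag
Psma6, second probe (chr6:75660606-75660665, plus strand): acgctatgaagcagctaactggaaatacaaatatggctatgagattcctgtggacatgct
Psmd2, first probe (chr11:82478213-82478272, minus strand): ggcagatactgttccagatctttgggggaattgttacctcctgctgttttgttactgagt
Psmd2, second probe (chr11:82479805-82481090, minus strand): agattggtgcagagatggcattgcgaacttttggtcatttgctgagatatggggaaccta
Probes of different members were unlike: the closest pair, those of the paired activator genes Psme1 and Psme2, shared 32 of 54 aligned bases. Retrocopies are another matter, since 19 members have 46 pseudogene entries of the same name stem in RefSeq, led by Psmb3 with 7 and Psma6 with 5, and a probe may read such copies too.

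Promoters are shown for members that moved in both directions, because proteasome genes are known to respond together to the transcription factors Nfe2l1 and Nfe2l2 through antioxidant response elements. The sequences are from RefSeq (build GRCr8), 250 bases before to 50 bases after the start of the gene, 5′ to 3′ on the strand of the gene. Capitals mark the core of that element (TGACNNNGC) and the CCAAT box, read on either strand.
Psmb6 (chr10:55737638-55737937, plus strand): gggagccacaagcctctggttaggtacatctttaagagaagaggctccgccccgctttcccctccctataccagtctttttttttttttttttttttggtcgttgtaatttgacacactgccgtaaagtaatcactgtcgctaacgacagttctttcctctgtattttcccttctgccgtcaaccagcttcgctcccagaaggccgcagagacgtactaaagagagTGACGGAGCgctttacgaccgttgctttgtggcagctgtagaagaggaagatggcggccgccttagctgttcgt
Psmd1 (chr9:94157721-94158020, plus strand): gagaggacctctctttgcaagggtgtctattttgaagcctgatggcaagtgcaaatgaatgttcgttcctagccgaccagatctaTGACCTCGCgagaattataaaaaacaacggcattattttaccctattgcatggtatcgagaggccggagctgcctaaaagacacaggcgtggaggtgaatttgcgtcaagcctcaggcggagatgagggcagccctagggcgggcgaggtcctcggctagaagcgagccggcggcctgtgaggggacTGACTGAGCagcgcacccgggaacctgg
Psmd13 (chr1:205393998-205394297, plus strand): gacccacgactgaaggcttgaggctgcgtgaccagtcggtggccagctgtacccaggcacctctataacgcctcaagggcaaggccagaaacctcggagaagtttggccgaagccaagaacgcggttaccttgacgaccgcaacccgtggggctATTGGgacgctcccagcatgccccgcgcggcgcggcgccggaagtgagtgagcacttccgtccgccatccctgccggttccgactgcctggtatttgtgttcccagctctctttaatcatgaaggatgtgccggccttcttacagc
Psme4 (chr14:108706393-108706692, plus strand): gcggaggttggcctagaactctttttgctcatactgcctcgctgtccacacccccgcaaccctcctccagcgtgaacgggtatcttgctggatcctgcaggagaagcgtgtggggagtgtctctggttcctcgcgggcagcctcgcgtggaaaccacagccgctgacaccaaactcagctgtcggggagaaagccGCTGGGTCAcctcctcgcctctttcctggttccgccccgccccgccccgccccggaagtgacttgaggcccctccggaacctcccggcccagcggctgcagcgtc
Psmb6, Psmd1 and Psme4 hold the core of the element and Psmd13 only a CCAAT box. A promoter was found for 37 of the 43 genes. The element core was in 8 of them (21.6%), against 12.1% of all 33365 promoters. CCAAT was in 18 (48.6%) against 37.5%, and the GC box (GGGCGG) was in 29 (78.4%) against 33.1%, with both strands searched each time and 2 overlaps of motifs, both in Psmb2. A match of letters is a description and not a site of binding.

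The arrays differed in brightness. In whey the upper quartile (75th percentile) of the processed signal lay between 12.0 and 78.7, lowest in d 2 whey of dam 1 and highest in d 9 whey of dam 3, and was 3.98 in serum, while 8 spike-in probes varied only 1.46-fold. Members had processed signals from 21.9 to 18500 in whey, and no spot of theirs was flagged as an outlier or saturated. The 10 arrays lay on 3 slides: d 2 whey of dams 1 and 2 on the first, d 2 whey of dam 3 with all d 9 whey on the second, and all d 16 whey with the serum pool on the third, which was scanned on a later day. For d 16 whey, day and slide therefore cannot be told apart. Values below are log2 of the processed signal after quantile normalization, tests are limma's moderated contrasts with Benjamini-Hochberg adjustment over the 16849 probes tested, and a change is called at an adjusted p under 0.05.

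The first question was how the proteasome transcripts differed between colostrum and late milk. From d 2 to d 16 whey, 18 of the 50 member probes (36%) changed, against 28.5% of all tested probes. With quantile normalization 15 member probes (30%) fell, against 12.4% of all probes, and 3 (6%) rose, against 16.0%. By gene, 13 of 42 fell and 2 rose. Read against that background, the excess of members lay among the falls, and rises were fewer than over the array.

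The shift was wider than the calls. The median change of the 50 probes was -0.32 on the log2 scale, against 0.04 for all tested probes, but it was 0.23 when the arrays were scaled to spike-in probes, a scaling that moved the median of all probes to 0.60. Relative to all probes the members thus stood at -0.36 with quantile normalization and at -0.37 with spike-in scaling. With quantile normalization 43 of the 50 changes were negative, against 47.3% of all probes, and with spike-in scaling 9 were. With quantile normalization 35 probes were lower on d 16 than on d 2 in each of the 3 dams. The median over members was -0.25 in dam 1, -0.30 in dam 2 and -0.39 in dam 3. For 33 of 50 members (66%) d 2 and d 16 values were fully separate, against 48.2% of all probes. Members are not independent of each other, and no test was made over them.

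The calls rest on few arrays. Without d 2 whey of dam 1, 2 or 3 the count of 18 became 11, 6 or 7, and without d 16 whey of dam 1, 2 or 3 it became 9, 4 or 4, while the share of all probes called lay between 16.3% and 24.4%. The Tukey-Kramer test that the methods name called 23 members before and 8 after adjustment over the probes. Tukey-Kramer counts, here and below, are given without the share of all probes, so they are not read as an excess or a lack of members. Scaling to spike-in probes called 0 (limma, with 4.64% of all probes called).

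**Figure D1:**
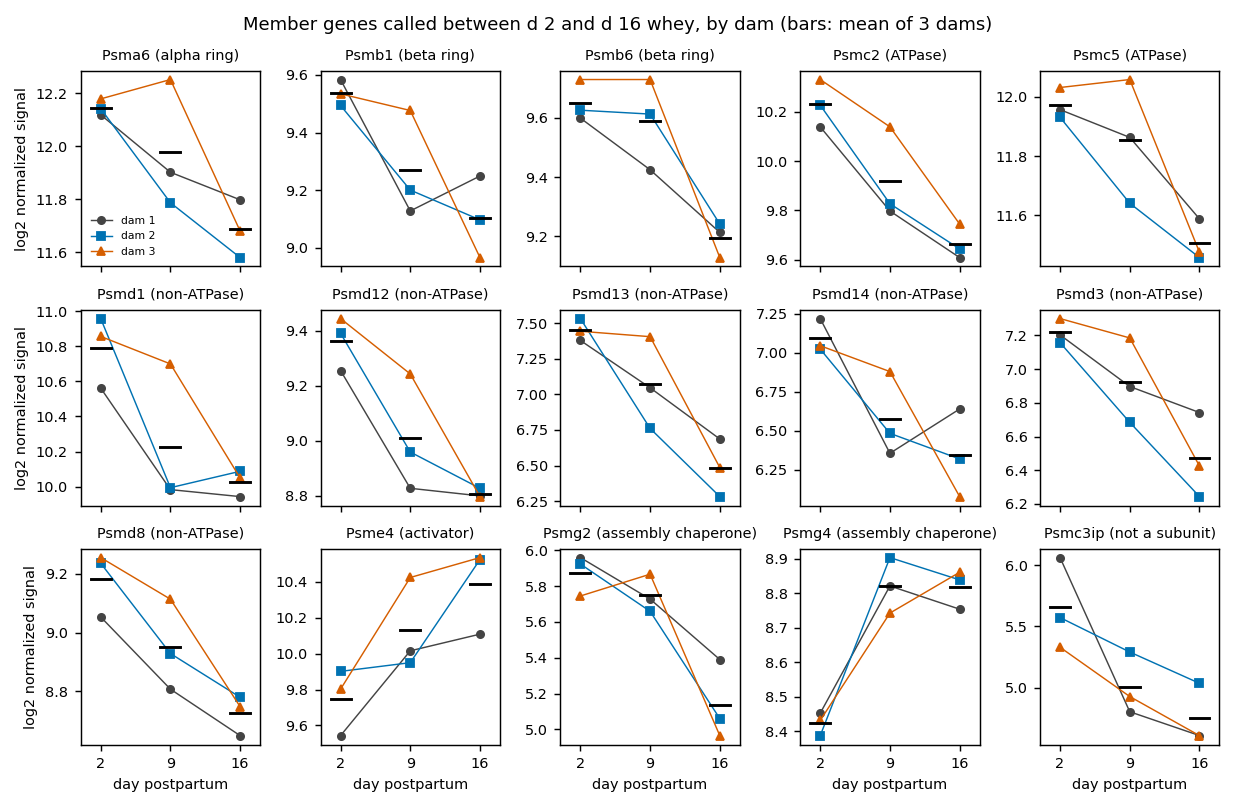
Log2 normalized signal (vertical axis, a separate range in each panel) on d 2, d 9 and d 16 (horizontal axis, days postpartum) for the 15 called genes, with 1 line for each dam and bars at the mean of the 3 dams. In 13 panels all d 16 points lie under all d 2 points, and in those of Psme4 and Psmg4 all lie above; with spike-in scaling the change of Psma6, Psmb1, Psmb6, Psmc5, Psmd12 and Psmd8 is slightly positive.

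In the alpha ring 1 of 8 genes fell, Psma6. Its first probe read 12.12, 12.14 and 12.18 in dams 1, 2 and 3 on d 2, then 11.90, 11.79 and 12.25 on d 9, and 11.80, 11.58 and 11.68 on d 16. Dams 1 and 2 were highest in colostrum and dam 3 on d 9, and the d 16 values lay under every d 2 value. The fall was 1.38-fold (log2 change -0.46, SE 0.144, adjusted p = 0.0471, limma), whereas spike-in scaling gave a log2 change of 0.09. Its second probe had a change of -0.30 with an adjusted p of 0.112, so the call belongs to a single probe of this gene. With the dam as a block the adjusted p of the first probe was 0.0545, in a range from 0.0156 to 0.956 over its alternatives.

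The other alpha ring genes lay close together but missed the threshold. Psma1, Psma2, Psma3l, Psma4 and Psma5 had d 16 to d 2 changes of -0.36, -0.40, -0.41, -0.41 and -0.33, each lower in all 3 dams and with adjusted p between 0.0628 and 0.102 (limma). Psma3 was the steadiest of the ring: it read 10.61, 10.77 and 10.76 on d 2, 10.46, 10.72 and 10.92 on d 9, and 10.60, 10.77 and 10.57 on d 16. The days of Psma3 overlapped throughout, with a change of -0.06 and an adjusted p of 0.772. Psma7 stood alone in sign, with a change of 0.14 (adjusted p = 0.371, limma) that was positive in all 3 dams.

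Of the beta ring 2 of 7 detected genes fell, Psmb6 and Psmb1. Psmb6, the subunit with caspase-like activity (probe at chr10:57371368-57371427, rn4), read 9.60, 9.63 and 9.73 on d 2, 9.42, 9.61 and 9.73 on d 9, and 9.21, 9.24 and 9.13 on d 16. On d 9 dam 1 lay under all d 2 values and dams 2 and 3 among them, and the d 16 values sat under both days. The fall from d 2 was 1.37-fold (log2 change -0.46, SE 0.118, adjusted p = 0.0248, limma), and 0.10 on the log2 scale in the other direction with spike-in scaling.

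Psmb1, a structural subunit of the same ring, read 9.58, 9.49 and 9.53 on d 2, 9.13, 9.20 and 9.48 on d 9, and 9.25, 9.10 and 8.97 on d 16. All d 16 values were under those of d 2, while d 9 and d 16 overlapped. Its fall was 1.35-fold (log2 change -0.43, adjusted p = 0.0461, limma), with a change of 0.12 under spike-in scaling, and with the dam as a block the adjusted p was 0.0753 (0.0203 to 0.942 over the alternatives). The other catalytic subunits were not called: Psmb5, with chymotrypsin-like activity, had -0.06 and Psmb7, with trypsin-like activity, had -0.30 (adjusted p of 0.734 and 0.169, limma). Whether the catalytic subunits differ from each other was not tested. Psmb2 was the steadiest, at 10.78, 10.97 and 10.96 on d 2, 10.85, 11.02 and 10.96 on d 9, and 10.84, 10.94 and 10.76 on d 16, and its days overlapped (change -0.06, adjusted p = 0.743, limma).

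The regulatory particle held most of the calls. Of its 22 probes 10 fell (45.5%), against 12.4% of all tested probes, and all 22 had a negative change with quantile normalization, with a median of -0.40, which was 0.14 with spike-in scaling. Of the 16 core particle probes 3 fell (18.8%), nearer to that 12.4%, with a median of -0.34, which was 0.17 with spike-in scaling. The lowest change was -0.97 in the regulatory and -0.46 in the core particle. No test of the difference between the particles was made.

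**Figure D2:**
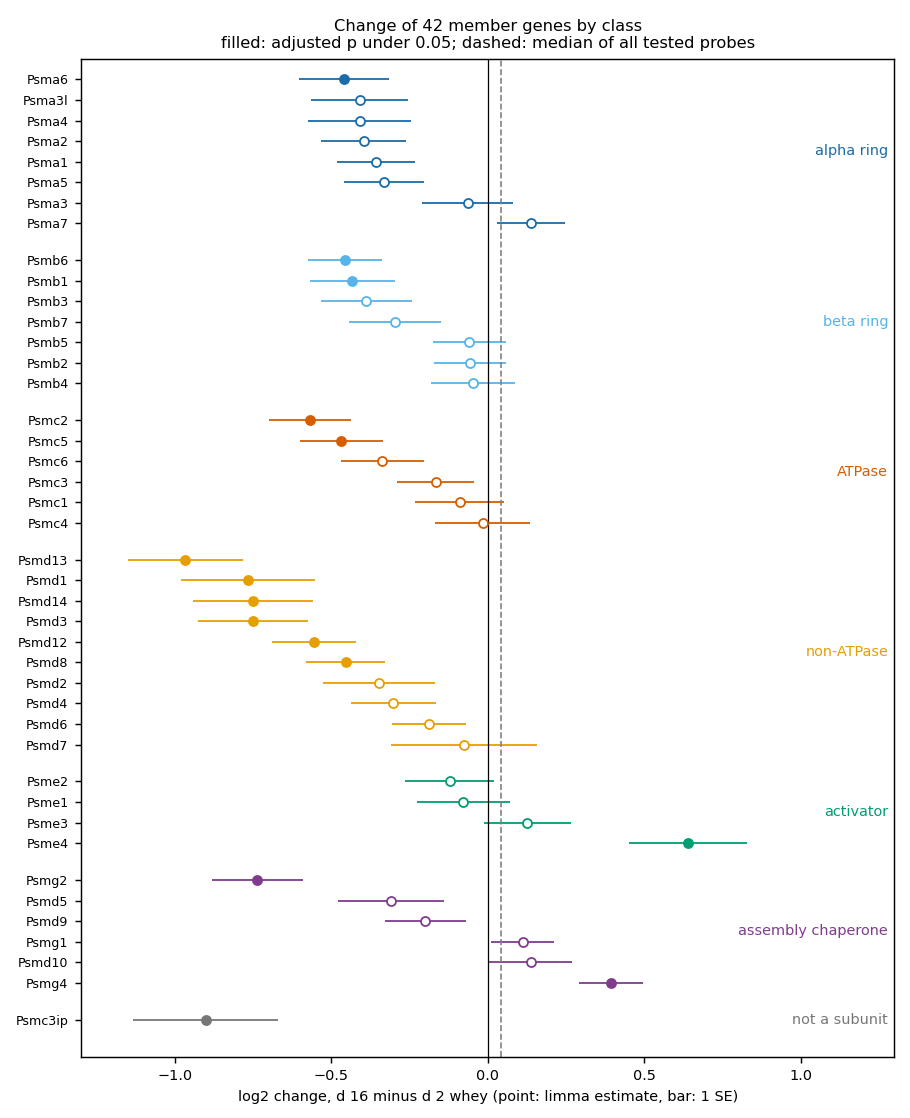
Log2 change from d 2 to d 16 whey (horizontal axis, bars 1 SE from limma) of the 42 genes, grouped by role, with filled points at an adjusted p under 0.05 and a dashed line at the median of all tested probes, 0.04. With quantile normalization 36 of 42 points lie left of 0, Psmd13 farthest at -0.97, and Psme4 lies farthest right at 0.64; with spike-in scaling the median over the member probes is 0.23.

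Among the ATPases 2 of 6 genes fell, Psmc2 and Psmc5. Psmc2 (probe at chr4:8704187-8704246, rn4) read 10.14, 10.23 and 10.33 on d 2, 9.80, 9.83 and 10.14 on d 9, and 9.61, 9.64 and 9.74 on d 16. Each dam descended from d 2 over d 9 to d 16, and d 2 and d 16 stood well apart. The fall was 1.48-fold (log2 change -0.57, SE 0.131, adjusted p = 0.0163, limma).

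Psmc5 fell by 0.47 on the log2 scale (adjusted p = 0.0334, limma), a change that was 0.07 with spike-in scaling. Psmc4 was the steadiest ATPase by its first probe, with 8.40, 8.40 and 8.44 on d 2, 8.37, 8.69 and 8.87 on d 9, and 8.24, 8.52 and 8.44 on d 16, and its days overlapped. That probe had a change of -0.02 (adjusted p = 0.951) and the second probe -0.33 (adjusted p = 0.137, limma), and whether the probes differ in change was not tested. Both probes of Psmc6 were lower in all 3 dams on d 16, by -0.34 and -0.46, and missed the threshold (adjusted p of 0.0966 and 0.0526, limma).

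Of the non-ATPase subunits 6 of 10 genes fell, of which 5 belong to the 7 lid genes and 1, Psmd1, to the base. The lid subunit Psmd13 had the largest fall of all members. It read 7.38, 7.53 and 7.44 on d 2, 7.05, 6.76 and 7.41 on d 9, and 6.69, 6.28 and 6.49 on d 16. Every dam went down at each step, and no d 16 value came near those of d 2. The fall was 1.96-fold (log2 change -0.97, SE 0.185, adjusted p = 0.0082, limma), and it passed in 16 of 17 alternatives, the exception being the scaling to spike-in probes.

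Psmd14, the lid's deubiquitinating enzyme (chr3:43696292-43699023, rn4), read 7.22, 7.02 and 7.05 on d 2, 6.35, 6.48 and 6.88 on d 9, and 6.64, 6.32 and 6.08 on d 16. In dams 1 and 2 most of the difference was already there on d 9. The fall to d 16 was 1.68-fold (log2 change -0.75, SE 0.192, adjusted p = 0.0236, limma). Psmd3, another lid subunit (chr10:87465622-87465681, rn4), read 7.20, 7.16 and 7.30 on d 2, 6.90, 6.68 and 7.19 on d 9, and 6.74, 6.24 and 6.43 on d 16. The d 9 value of dam 3 sat with colostrum and the other d 9 values did not. Its fall was also 1.68-fold (log2 change -0.75, SE 0.176, adjusted p = 0.0175, limma).

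Psmd12 and Psmd8 fell by 0.56 and 0.45 on the log2 scale (adjusted p of 0.0192 and 0.03, limma), and with spike-in scaling they had changes of 0.0086 and 0.12. The remaining lid genes did not pass. Psmd6 had -0.19 (adjusted p = 0.269), and Psmd7, partner of Psmd14 in the lid, was the steadiest non-ATPase. It read 8.66, 8.95 and 8.68 on d 2, 8.54, 9.04 and 8.76 on d 9, and 8.20, 8.97 and 8.90 on d 16. In Psmd7 dam 1 was lowest on each day and the days overlapped, with a change of -0.08 (adjusted p = 0.837, limma) and -0.18 and -0.25 by its other probes.

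In the base, Psmd1, a large scaffold subunit (first probe at chr9:84882853-84882912, rn4), read 10.56, 10.96 and 10.86 on d 2, 9.98, 9.99 and 10.70 on d 9, and 9.94, 10.09 and 10.05 on d 16. On d 9 dams 1 and 2 were already at the d 16 level and dam 3 was still at that of colostrum. The fall from d 2 to d 16 was 1.70-fold (log2 change -0.77, SE 0.214, adjusted p = 0.0319, limma), and the second probe gave -0.83 (adjusted p = 0.013).

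Psmd2, the other large scaffold, differed between its probes. The first had a change of -0.35 (adjusted p = 0.185) and the second fell by 0.76 on the log2 scale (adjusted p = 0.0342, limma), both lower in all 3 dams. The second probe read 8.84, 9.18 and 9.24 on d 2, 8.53, 8.28 and 9.02 on d 9, and 8.42, 8.12 and 8.45 on d 16, with no overlap between d 2 and d 16. Psmd4, a ubiquitin receptor, had -0.30 (adjusted p = 0.137, limma), lower in all 3 dams.

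Of the 4 activator genes 1 was called, Psme4, and of the others 1 had a positive and 2 a negative change with quantile normalization. Psme4, a large single-chain cap of the core particle, was 1 of 2 genes that rose. Its first probe read 9.54, 9.90 and 9.80 on d 2, 10.02, 9.95 and 10.43 on d 9, and 10.11, 10.53 and 10.54 on d 16. All values of d 9 and d 16 were above all of d 2. The rise to d 16 was 1.56-fold (log2 change 0.64, SE 0.189, adjusted p = 0.0389, limma), and the second probe gave 0.77 (adjusted p = 0.0356). It passed in 8 of 17 alternatives and kept its direction in each of them.

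The interferon-inducible activator pair did not pass the test: Psme1 had -0.08 (adjusted p = 0.727) and Psme2 -0.12 (adjusted p = 0.555, limma). Psme2, the steadiest activator, read 9.53, 9.63 and 9.67 on d 2, 9.44, 9.82 and 9.79 on d 9, and 9.5, 9.63 and 9.35 on d 16, all within the spread of the days. Psme3, the nuclear activator, had 0.13 (adjusted p = 0.531, limma).

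Assembly chaperones split. Psmg2, which works with Psmg1 to start the alpha ring, read 5.96, 5.92 and 5.74 on d 2, 5.73, 5.66 and 5.87 on d 9, and 5.39, 5.06 and 4.96 on d 16. The values of d 2 and d 9 overlapped, and those of d 16 lay under both. From d 2 to d 16 it fell 1.67-fold (log2 change -0.74, SE 0.146, adjusted p = 0.00917, limma), and it passed in 16 of 17 alternatives, all but the spike-in scaling.

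Psmg4, an alpha ring chaperone of another pair, rose. It read 8.45, 8.39 and 8.43 on d 2, 8.82, 8.90 and 8.74 on d 9, and 8.75, 8.84 and 8.86 on d 16. Colostrum was lower than both later days in each dam, and d 9 and d 16 overlapped. The rise to d 16 was 0.39 on the log2 scale (SE 0.102, adjusted p = 0.0249, limma). Psmg1, partner of Psmg2, had 0.11 (adjusted p = 0.443), and Psmd5, Psmd9 and Psmd10, chaperones of the base, had -0.31, -0.20 and 0.14, with adjusted p from 0.207 to 0.476 (limma).

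The steadiest chaperone, Psmd9, read 9.87, 9.86 and 9.94 on d 2, 9.82, 9.70 and 10.12 on d 9, and 9.71, 9.68 and 9.68 on d 16, where d 16 was lower than d 2 in every dam without a call. Psmc3ip, no subunit, read 6.06, 5.57 and 5.33 on d 2, 4.80, 5.29 and 4.93 on d 9, and 4.61, 5.04 and 4.61 on d 16. Its fall was 1.87-fold (log2 change -0.90, SE 0.231, adjusted p = 0.0239, limma), the second largest by size among the members. Dam 1 had the highest d 2 value of Psmc3ip, and the spread among the d 2 values was wider than for the subunits described above.

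Fewer members were called from d 2 to d 9. Of 50 member probes 1 (2%) changed, Psmg4, against 17.6% of all tested probes; it was a rise (11.3% of all probes rose), and 0 members fell, against 6.36%. An unadjusted p under 0.05 was found for 9 members, against 34.6% of all probes, and the Tukey-Kramer test called 5 before and 2 after adjustment. Psmg4 rose by 0.40 on the log2 scale (SE 0.102, adjusted p = 0.0349, limma), and the dam as a block gave an adjusted p of 0.0554 (0.00224 to 0.231 over the alternatives). With that block 1 other probe was called in its place, the second probe of Psmd1, with a change of -0.60 and an adjusted p of 0.0438. Values of d 2 and d 9 were fully separate for 12 of 50 members (24%), against 38.8% of all probes.

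The median change of members from d 2 to d 9 was -0.045, against 0.11 for all tested probes, and 1.42 with spike-in scaling, which moved all probes to 1.52. Dams differed here: the median over members was -0.11 in dam 1, -0.12 in dam 2 and 0.10 in dam 3. The d 9 array of dam 3 was the brightest of all, and without it 4 members were called, while without any other array of the 2 days 0 were. No share of all probes is set beside these counts, so they are not read as an excess or a lack of members. Against the 1 colostrum array on their own slide, the d 9 arrays had a member median of -0.07. The part of brightness and of slide in these values was not tested.

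From d 9 to d 16 no member was called by limma, against 1.42% of all tested probes (0.855% lower and 0.564% higher). An unadjusted p under 0.05 was found for 10 members, against 18.7% of all probes, and the Tukey-Kramer test called 8 before and 0 after adjustment. Even so 47 of 50 changes were negative, against 57% of all probes, and the median was -0.23, against -0.06, or -1.14 against -0.91 with spike-in scaling. By dam the medians were -0.11, -0.16 and -0.44. Values of d 9 and d 16 were fully separate for 18 members (36%), against 29.3% of all probes. Nearest to a call were Psmg2, with -0.61 (adjusted p = 0.0907, limma), and the second probe of Psmc6, with -0.57 (adjusted p = 0.11, limma). With normexp background correction 4 of 50 members were called, beside 855 of the 16849 tested probes.

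**Figure D3:**
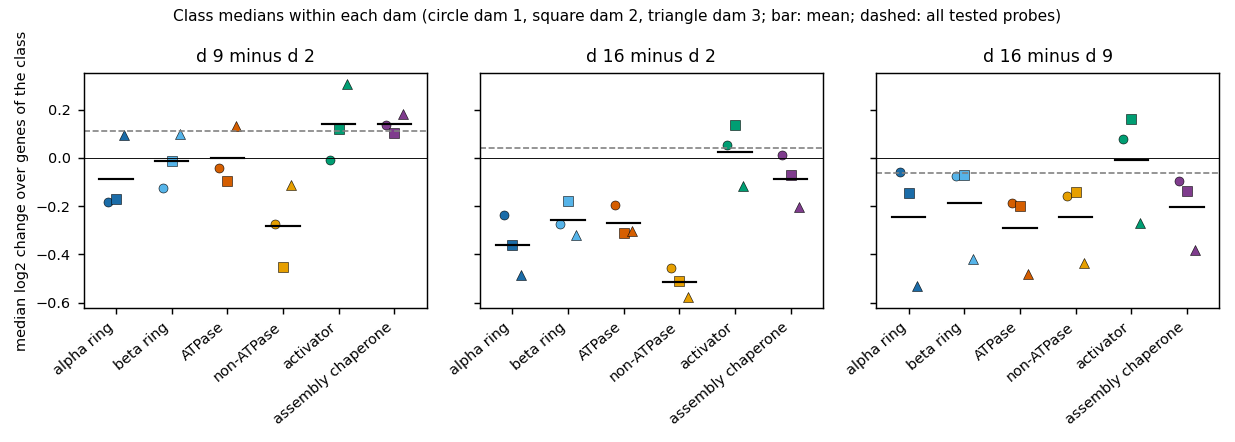
Median log2 change over the genes of each role (horizontal axis) within each dam, for the 3 comparisons of days. From d 2 to d 16 the non-ATPase medians are -0.46, -0.51 and -0.58 in dams 1, 2 and 3, and dam 3 alone lies above 0 in several roles from d 2 to d 9; spike-in scaling turns the d 16 to d 2 medians of core and regulatory particle positive.

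**Figure D4:**
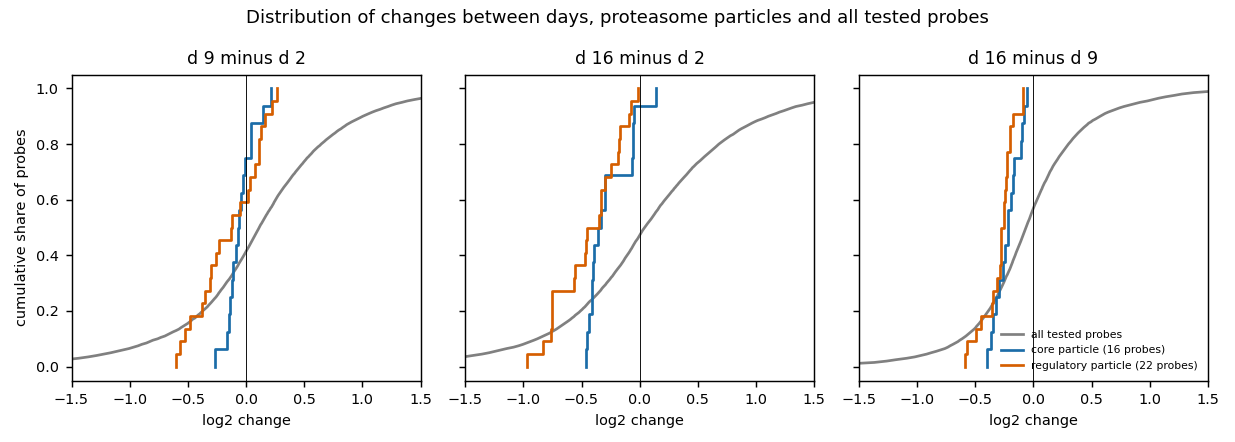
Cumulative share of probes (vertical axis) with a log2 change at or under the value on the horizontal axis, for 16 core particle probes, 22 regulatory particle probes and all tested probes, with quantile normalization. From d 2 to d 16 the medians of core and regulatory particle, -0.34 and -0.40, lie left of that of all probes, 0.04. There 28.3% of all probes lie at or under the member median of -0.32. At the low end the order turns. A share of 0.2 of all probes lies at or under -0.51, lower than any core particle probe (lowest -0.46). A share of 0.05 lies at or under -1.29, lower than any regulatory particle probe (lowest -0.97).

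In cell types, the whey arrays carried the transcripts of mammary epithelium, as 12 of 12 such markers on the array were well above background on all 9 arrays. In bulk RNA, fewer cells of a type and less RNA per cell cannot be told apart, and this holds for RNA released from cells too. Between d 2 and d 16 the epithelial list moved both ways. Of 12 genes 5 rose (Lalba, Csn2, Wap, Btn1a1 and Csn3, the last with an adjusted p of 0.0498, and 0.0712 with the dam as a block, limma) and 2 fell (Krt8 by 1.16 and Krt18 by 0.72 on the log2 scale). Wap read 17.77 on every d 2 array and 18.50 on every d 16 array. Quantile normalization assigns such values by rank, so the spread of Wap within these days was not measured. By qPCR in equal volumes, an unlike measure, the paper found Lalba and Csn3 higher in colostrum and Csn2 and Wap unchanged. The summed level of the list was 20.03 to 20.09 on d 2, 20 to 20.34 on d 9 and 20.22 to 20.46 on d 16.

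Macrophage markers rose beside the fall of the proteasome genes. Of 11 on the array 7 were tested, 5 rose and Cd14 fell from d 2 to d 16, with Fcgr1a at 3.36 and C1qa at 3.31 on the log2 scale, while Cd163, Csf1r and Marco were not well above background on any whey array. Their summed level was 8.49 to 8.81 on d 2, 8.15 to 9.37 on d 9 and 9.90 to 9.98 on d 16. For neutrophils 5 of 11 were tested and 1 rose (Np4, 1.03), 5 including Elane and Csf3r being not well above background, and the summed level was 6.14 to 6.46, 5.83 to 7.80 and 6.56 to 8.84 on the 3 days. Among lymphocyte markers 3 of 11 were tested and 2 rose (Cd3d and Cd3g), with sums of 6.09 to 6.71, 6.42 to 7.13 and 7.24 to 7.71, and 6 were not well above background. A globin gene, LOC287167, the 1 of 8 erythroid markers tested, rose by a log2 change of 2.12, with list sums of 6.30 to 6.61, 6.78 to 7.26 and 7.64 to 8.29. The platelet marker Pf4, 1 of 7 tested, fell by 1.73 on the log2 scale, with list sums of 5.64 to 6.03, 5.16 to 5.93 and 4.58 to 5.08. Of 9 liver markers 8 were not well above background on any whey array. The part of these cell types in the change of the members was not tested.

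Genes that act with the proteasome were read from lists, to be set against the 12.4% of all tested probes that fell and the 16.0% that rose from d 2 to d 16. Of 5 tested genes for ubiquitin and its activating enzymes 2 fell from d 2 to d 16 with quantile normalization and 0 rose. Rps27a, which encodes ubiquitin fused to a ribosomal protein, fell by 0.56 on the log2 scale (adjusted p = 0.0252 with quantile normalization, limma). Uba1, the main activating enzyme, fell by 0.77 (adjusted p = 0.0446, limma). With spike-in scaling the change of Rps27a was positive, at 0.10. Of 11 tested proteasome-associated genes 2 fell, near the share of all probes. Pomp, the maturation factor of the core particle, fell by 0.62 (adjusted p = 0.00932 with quantile normalization, limma), whereas with spike-in scaling its change was positive, at 0.026. Uchl5, a deubiquitinase bound to the regulatory particle, fell by 0.60 (adjusted p = 0.0145, limma). Of 11 tested shuttle factors and unfoldases 3 fell. Vcp, the ATPase that extracts ubiquitinated proteins, fell by 1.07 (adjusted p = 0.00749), and Faf1, a Vcp cofactor, fell by 0.43 (adjusted p = 0.0377 with quantile normalization, limma). The shuttle Rad23b fell by 0.49 on the log2 scale (adjusted p = 0.0434 with quantile normalization and 0.0674 with the dam as a block, limma). With spike-in scaling the changes of Faf1 and Rad23b were positive, at 0.19 and 0.09. With the dam as a block the ubiquitin ligase Ube3a passed too, at -0.48 (adjusted p = 0.0371, limma). The medians of the 3 lists were -0.27, -0.09 and -0.17, against 0.04 for all tested probes, and 0.32, 0.53 and 0.40 against 0.60 with spike-in scaling.

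Among known regulators of proteasome genes 2 of 5 tested rose from d 2 to d 9, and none passed the test from d 2 to d 16. With the dam as a block Mafg, a binding partner of Nfe2l1 and Nfe2l2, passed from d 2 to d 16, with a change of 0.50 (adjusted p = 0.0492, and 0.0887 without the block, limma). Nfe2l2 rose by a log2 change of 0.99 (adjusted p = 0.0174) and Ngly1, the deglycosylase that matures Nfe2l1, by 0.59 (adjusted p = 0.0157, limma). Nfe2l1 itself was well above background on 2 of the 9 whey arrays but below the minimum processed signal of 20 for a test. Of the immunoproteasome subunits left out by the rule, Psmb8 rose from d 2 to d 9 by 0.54 (adjusted p = 0.0248), Psmb9 had 0.29 (adjusted p = 0.279, limma), and none of the 3 passed the test from d 2 to d 16, where the median of the list was 0.13.

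Other probes describe proteasome genes by annotation but not by symbol. Between d 2 and d 16, Psmd11, a lid subunit, had a log2 difference of -0.22 with an adjusted p of 0.252, and Psmf1, the inhibitor, had -0.30 with an adjusted p of 0.146 (limma). A copy described as similar to a beta subunit (RGD1562774) fell by 0.53 and a copy of Psmd8 (ENSRNOT00000059115) by 0.55 on the log2 scale (adjusted p of 0.0163 and 0.015, limma). Copies similar to Psmb3 (LOC366367 and RGD1564425) had -0.36 and -0.33, close to the -0.39 of Psmb3 itself.

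Against serum the members were mostly higher in whey, by amounts that depend on how the arrays are scaled. All 50 detected probes were well above background in whey, and 41 of them in serum. Over 4-fold higher in whey were 13 of 50 (26%), against 27.2% of all probes detected on any array, and 0 were over 4-fold higher in serum, against 15.7%. By any amount 67.6% of all those probes were higher in whey. Of the 41 members that cleared background on each of the 10 arrays, 40 were higher in whey, against 53.7% of all such probes, with a median log2 difference of 1.24, and 6 were over 4-fold higher, against 8.79%. The count of 13 became 31 with scaling to the 75th percentile, 50 with spike-in scaling and 3 with normexp background correction. Over all probes detected on any array, the count of 5769 of 21177 became 3603, 12773 and 519 in that order. With 1 serum array there is no test.

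The largest measured differences were those of Psme4, Psmb6 and Psma2. Psme4 had a mean of 10.09 over the 9 whey arrays and 6.21 in serum, a 14.8-fold difference. Psmb6 had 6.97 in serum, 5.68-fold under its whey mean of 9.48. Psma2 read 9.63, 9.56 and 9.58 on d 2, 9.25, 9.41 and 9.67 on d 9 and 9.27, 9.23 and 9.07 on d 16, and 7.02 in serum, a 5.23-fold difference, with every whey value above that of serum.

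For these 3 genes the gap to serum was wider than the spread over days. Psme1 was the only detected member higher in serum, at 9.93 against a whey mean of 9.40, a log2 difference of 0.52, and with scaling to the 75th percentile or to spike-in probes no member was higher in serum. Its whey values were 9.42, 9.57 and 9.60 on d 2, 9.00, 9.22 and 9.44 on d 9 and 9.40, 9.61 and 9.34 on d 16, all under that of serum.

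Of the 50 detected member probes 9 (18%) were not well above background in serum, against 52.8% of the 9831 probes detected on each whey array. Of 7 lid genes 4 (Psmd3, Psmd6, Psmd13 and Psmd14) were among these 9 members, against 0 of 9 base genes and 0 of 15 detected core particle genes, as were Psmd5, Psmg2 and Psmc3ip and the weaker probes of Psme4 and Psmd7. These 4 lid genes were dim in whey, with means from 5.8 to 7, where the members measured in serum had 7.57 to 11.9, and 71.4% of all probes in the range of the 4 were not well above background in serum. Whey was set against the lowest serum signal well above background, or against the serum reading of the probe where that was higher. Other probes were not well above background at higher serum readings, such as 6.33 for Epb4.2, so these ratios are not strict lower bounds. With quantile normalization the ratio was 17.5-fold for Psmd5, 13.7-fold for Psmd3, 8.36-fold for Psmd14, 6.53-fold for Psmd6, 5.63-fold for Psmg2, 4.12-fold for Psmc3ip and 3.72-fold for Psmd13. These ratios were not computed with other scalings. With normexp background correction 3 of the 50 member probes were over 4-fold higher in whey, beside 519 of all probes detected on any array. The summed level of erythroid markers was 18.27 in serum and that of platelet markers 16.57, both higher than on any whey array, and their part in the differences was not tested.

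**Figure D5:**
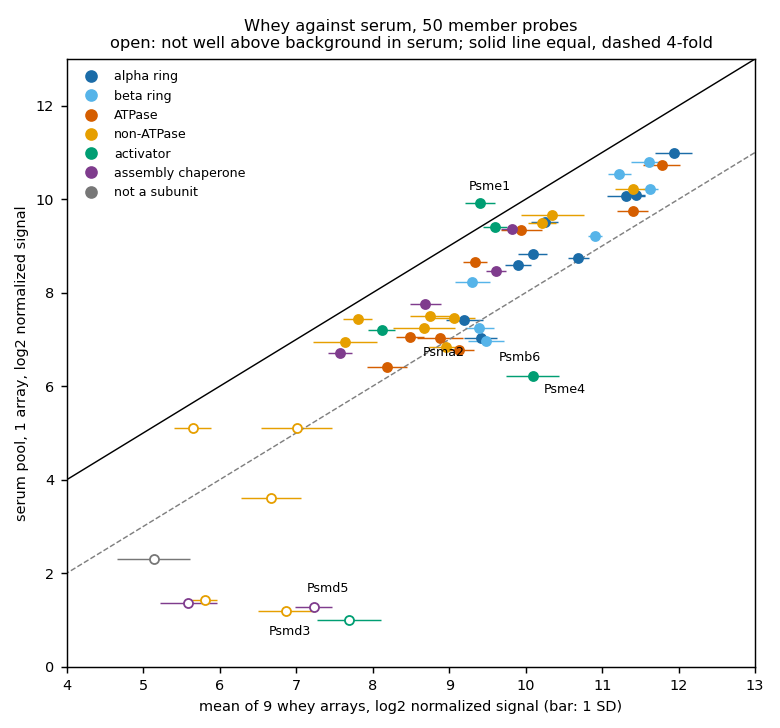
Serum value (vertical axis, 1 array) against the mean of the 9 whey arrays (horizontal axis, bars 1 SD), both log2 normalized signal, for 50 member probes coloured by role, with open points where serum was not well above background. Of the 41 filled points 40 lie under the line of equality, Psme1 lies above it at 9.93 against 9.40, and Psme4, Psmb6 and Psma2 lie under the 4-fold line; with scaling to the 75th percentile or to spike-in probes Psme1 lies under equality too.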

How the data were processed

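Day and dam of each array come from the sample titles. The authors purified total RNA with miRNeasy columns, amplified 100 ng for each array by the low-input linear method, labelled it with Cy3 and hybridized it to 1-colour Agilent rat arrays. The deposited values are intensity values made by the authors with Agilent Feature Extraction 9.5.3.1. The processed intensity is, per the file headers, background-subtracted and detrended but not normalized between arrays, and the mean spot and background intensity are raw. Other deposited values are flags of 0 or 1 from the same software (saturated, outlier, well above background). Probe positions are on rn4, per the file headers. A deposited log2 table of the whole series has 10 columns whose names match no sample label, and it was not used.

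Processed signals were set on the log2 scale and quantile normalized across the 10 arrays without control spots, outlier spots were set to missing and spots of a probe averaged. A probe was tested (16849 were) if at least 1 whey array had it well above background at a processed signal over 20. Days were compared with limma 3.58.1 in R 4.3.3, with data.table (1.17.8) and jsonlite (2.0.0), by lmFit and eBayes, two-sided, on the 9 whey arrays with 6 residual and 1.83 prior degrees of freedom, without a dam term, since the methods state none. Figures used matplotlib 3.10.9 and pandas 2.3.3. The code was tested on simulated data. Serum entered no test.

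Members, gene lists, roles and tests were chosen with earlier results of these data known. Values in every sample are given for the 5 largest called changes in each direction and, in each role, for the genes with the smallest and the largest p of the F test over days. Values of Psmb1 and of the second probe of Psmd2 were added after they were seen. Against serum the 3 largest differences each way are given. Lists name the 2 genes with the smallest F test p, and beside them, chosen after their values were seen, other called or undetected genes where they are few, and Psmb9. Same-numbered samples are the same dam by their titles. Their deviations from the day means correlated with r from -0.0185 to 0.218 (mean 0.0953, 9 pairs). Those of different dams correlated with r from -0.254 to 0.158 (mean -0.0473, 18 pairs). The ranges overlap, so these correlations do not establish the pairing. Alternatives were other scalings (75th percentile, 8 spike-in probes, normexp with an offset of 50, whey arrays alone), other filters on dim probes, the dam as a block, the slide as a fixed or random block, only the 2 days compared, the Tukey-Kramer test of the methods, other fold thresholds against serum, and leaving out each array. The number of arrays limits the precision of these values.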

Additional observations from a re-analysis of the deposited data

How the results depend on the processing

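The 18 members called from d 2 to d 16 became 0 with spike-in scaling and 8 with the Tukey-Kramer test adjusted over the probes (23 unadjusted), and 4 to 11 when 1 array was left out. They became 13 with scaling to the 75th percentile (13 lower and 0 higher) and 26 with normexp (23 lower and 3 higher). Of all 16849 tested probes 4345 were called with the 75th percentile and 4929 with normexp, against 4801 with quantile normalization. Spike-in scaling turned the log2 changes of Psma6 to 0.095, Psmb1 to 0.12, Psmb6 to 0.10, Psmc5 to 0.075, Psmd12 to 0.0086 and Psmd8 to 0.12, and the cause was not tested. It moved the share of higher calls among all probes to 99%, 77.7% and 2.58% in the 3 comparisons (d 9 against d 2, d 16 against d 2, d 16 against d 9), from 63.9%, 56.3% and 39.7%. The other 3 scalings kept the sign of all 15 called genes, and the members' median stayed 0.28 to 0.37 under that of all probes (-0.28 with normexp, -0.37 with the 75th percentile). The 1 member called from d 2 to d 9 became 10 with spike-in scaling, where 6935 of the 16849 tested probes were called. With normexp the count was 6, where 3440 of all tested probes were called. The count was 2 among probes detected on each of the 9 whey arrays and 4 with a minimum signal of 100. It was 0 with the slide as a fixed block, 2 as a random block and 0 with only the 2 days in the fit. The adjusted Tukey-Kramer test gave 2 (5 unadjusted), and leaving out 1 array gave 0 to 4. From d 9 to d 16 the 0 calls became 4 with normexp, where 855 of all tested probes were called. They became 2 among probes detected on each of the 9 whey arrays and 2 with a minimum signal of 100. With the slide as a random block there was 1 call, and the count stayed 0 without any 1 array. For the other settings of d 9 against d 2 and d 16 against d 9, no share of all probes is set beside the counts. With the dam as a replicate block, the count was 16 for d 16 against d 2, 1 for d 9 against d 2 and 0 for d 16 against d 9: Psma6 and Psmb1 lost their call to d 16, Psmg4 lost its call to d 9, and the other 13 genes called to d 16 kept theirs. The 13 members over 4-fold higher in whey than in serum became 31 with scaling to the 75th percentile, 50 with spike-in scaling and 3 with normexp. They became 6 among probes detected on each of the 10 arrays, 33 at 2-fold and 7 at 8-fold, and stayed 13 without any 1 whey array. Over all probes the count of 5769 became 3603, 12773, 519, 408, 9553 and 3258 in the same order of settings. The slide could be a fixed block only from d 2 to d 9, and 3 dams limit what the tests can call.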
